A study of Mus musculus with 22 samples.

Results

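The effect of PFOS on intestinal gene expression was estimated as the mean of 3 contrasts, each between exposed and unexposed mice on the same dietary fibre. PFOS (perfluorooctanesulfonic acid) is a fluorinated surfactant that persists in water and in the body. The estimate used all 22 libraries of the series: Control (n = 4) and PFOS (n = 4) on cellulose, Inulin (n = 3) and Inulin_PFOS (n = 3), and Pectin (n = 4) and Pectin_PFOS (n = 4). Each diet had the same weight, 11 libraries were exposed and 11 were not, and no library entered more than 1 contrast.

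All animals were wild-type C57BL/6 males that were 7 weeks old at the start, and all ate an irradiated diet for 7 weeks. The diet held 8% fibre by weight and, per the labels, fat gave 35% of the calories, carbohydrate 45% and protein 20%. Cellulose, which gut bacteria ferment poorly, was the control fibre, while inulin and pectin are readily fermented. The exposed groups drank water that delivered 3 µg of PFOS per kg of body weight per day. The titles call the replicates biological and do not say that each is a different mouse. The p-values measure the spread between these samples. A treatment field mentions PFOS in every sample, the controls included, and exposure was therefore read from the group name in the titles.

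PFOS is best known in rodent liver as an activator of PPAR-alpha, a nuclear receptor for fatty acids that switches on fat oxidation. In the intestine the same receptor answers to dietary fat, and its targets are expressed by absorptive cells. ATF4, the transcription factor of the other main gene group described here, accumulates when cells run short of amino acids or when the endoplasmic reticulum is stressed, and it switches on genes for amino acid synthesis, amino acid transport and one-carbon metabolism.

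The labels give the tissue only as intestine. Vil1, which encodes the brush border protein villin, lay between 1590.4 and 5626 CPM (counts per 1000000, scaled by TMM) in the 22 libraries. Fabp6, the bile acid binding protein of the ileum, lay between 1428 and 5063 CPM. Slc10a2, the bile acid transporter of the ileum, lay between 32.2 and 522 CPM. Of 11 genes listed as colon markers, 6 passed the expression filter, Mep1a (mean 1606 CPM), Car4 (235 CPM), Slc26a3 (89.9 CPM) and Muc4 (6.87 CPM) among them, and Car1, Aqp8, Hoxb13 and Hoxd13 did not. Gata4, a transcription factor of the proximal small intestine, stood above 10 CPM in 4 libraries, with 32.2 CPM in PFOS replicate 4, 17.6 in Pectin replicate 2, 52.1 in Pectin_PFOS replicate 3 and 25.1 in Pectin_PFOS replicate 4. The other libraries had at most 4.22 CPM, so 3 of the 4 libraries that stood apart were exposed. The main counts are also given with these 4 libraries left out. In that fit, 2121 of 15950 genes had an unadjusted p under 0.05 in the mean contrast, in either direction. The median log2 fold change over all genes was -0.06 there, beside -0.02 with all libraries. Shares of all genes printed beside list counts come from the fit with all libraries. Library totals ran from 17613322 to 20261370 counts, and mitochondrially encoded genes took between 2.85% and 14.9% of a library.

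**Figure D1:**
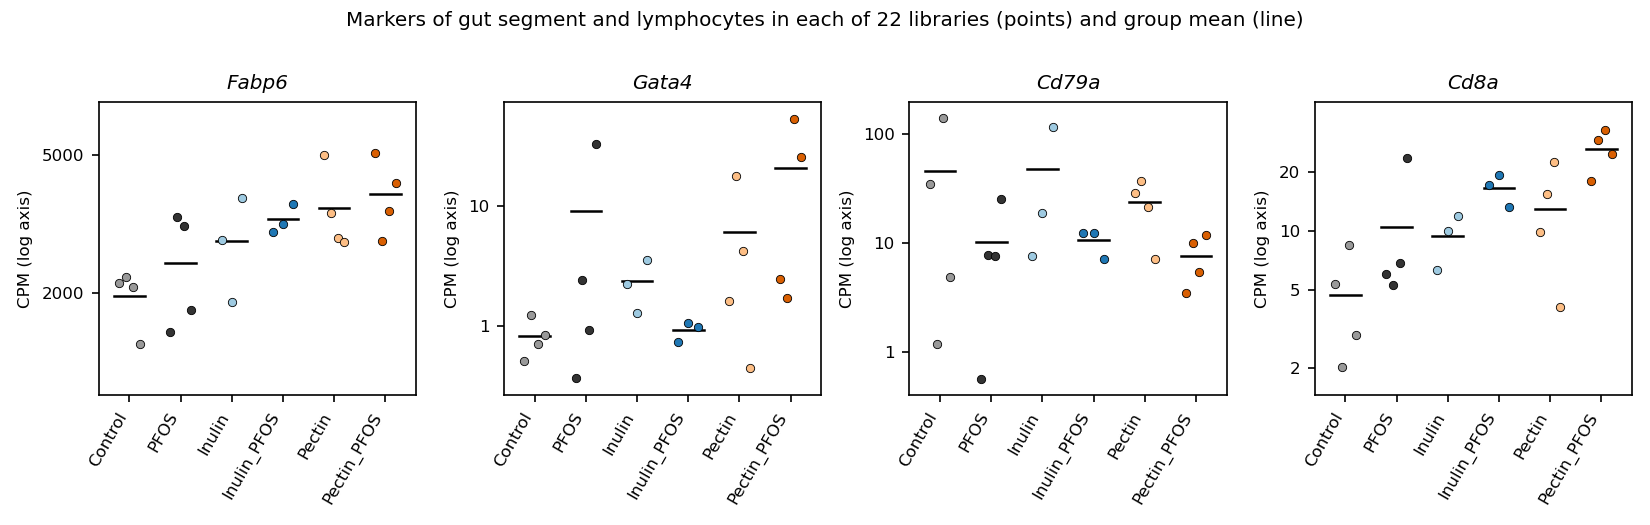
Level of 4 marker genes in CPM (y axis, logarithmic) in the 6 groups (x axis). Points are libraries and lines are group means. Fabp6 lies between 1428 and 5063 CPM in all libraries, whereas Gata4 exceeds 10 CPM in 4 of them. Cd79a, a B cell gene, and Cd8a, a cytotoxic T cell gene, spread widely within groups.

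Of 15763 genes tested, 25 (0.159%) passed an adjusted p of 0.05 in the mean contrast. There were 17 higher with PFOS (0.108%) and 8 lower (0.0508%), and 2349 genes (14.9%) had an unadjusted p under 0.05. The lower genes included Acot1, which cleaves acyl-CoA. Among the higher genes were Jdp2, Mthfd2, Asns and Chac1 of the ATF4 group, the alcohol dehydrogenases Adh1 and Adh6a, and the mitochondrial malic enzyme Me2. The call rests on the mean of the 3 contrasts, so the agreement of those contrasts describes the called genes and is no separate test. Of the 25 genes, 24 had the same sign on all 3 fibres, against 19.6% of all genes tested. The exception was Asns.

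The size of the difference was not even across diets. In 19 of the 25 genes the smallest contrast was the one on cellulose, and the largest was on inulin in 13 and on pectin in 12. The same shares over all genes are not given here, so this is not shown to be particular to the called genes. Without the Gata4-high libraries the same-sign count was again 24 of 25, and the single-diet calls over all genes were 0 on cellulose, 21 on inulin and 510 on pectin. None of the 25 passed an adjusted p of 0.05 on cellulose alone, by edgeR or by DESeq2, although 13 of them had an unadjusted p under 0.05 there. Over all genes, the cellulose contrast had 0 calls (0%) by edgeR, 842 genes at an unadjusted p under 0.05 and 1 call by DESeq2. By edgeR, 2963 genes on inulin and 5837 on pectin had an unadjusted p under 0.05. On inulin 7 of the 25 passed alone, against 25 of all genes (0.159%). On pectin 16 passed alone, against 3277 of all genes (20.8%). No single-diet contrast called 4 of the 25. A test of whether the 3 contrasts were equal was passed by 7 of the 25 genes and by 1977 of all genes (12.5%).

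**Figure D2:**
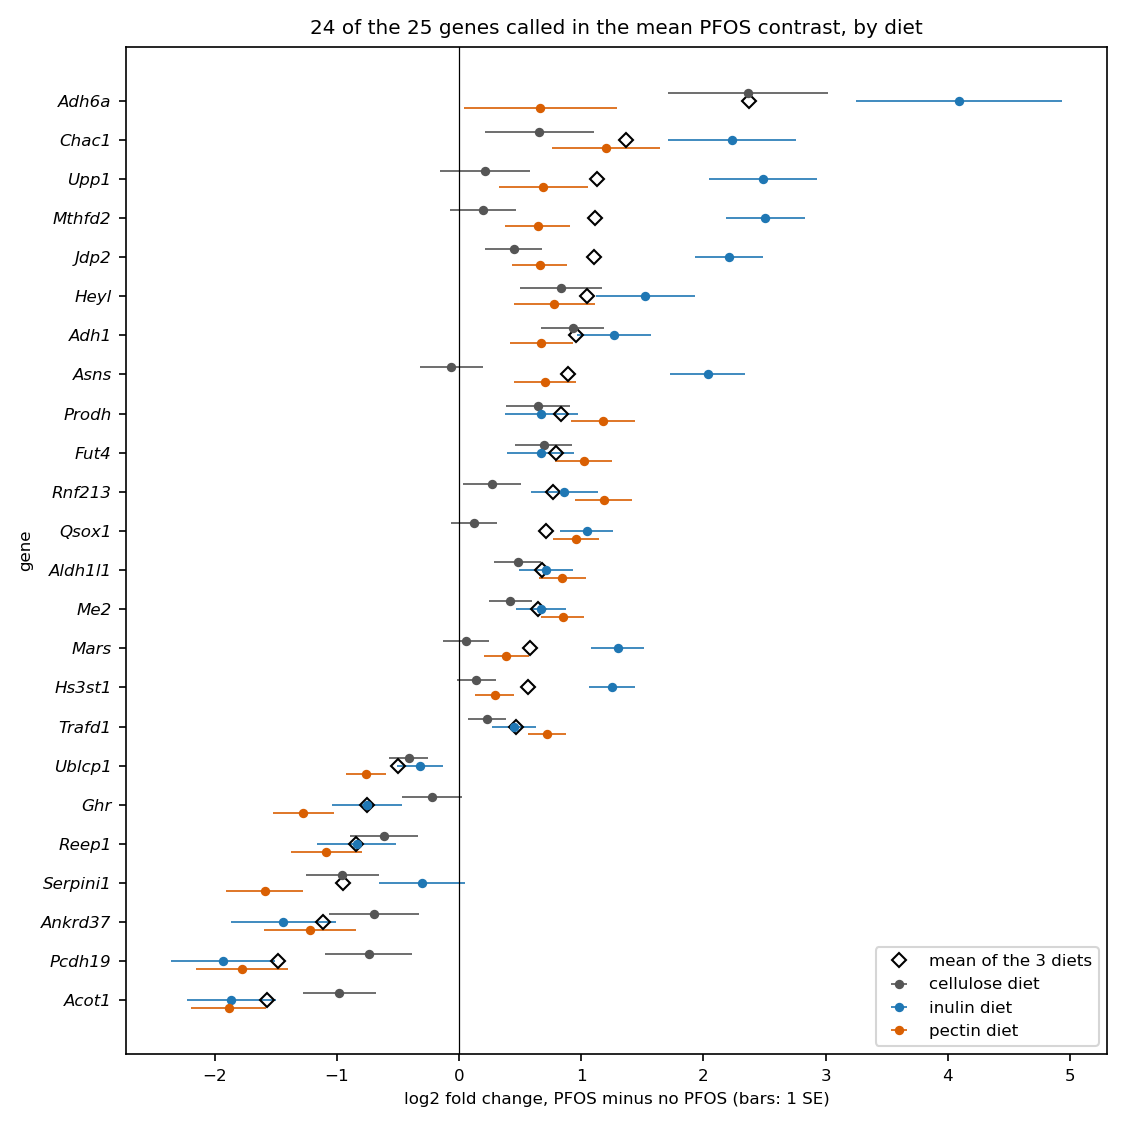
Log2 fold change of 24 of the 25 called genes (x axis, exposed minus unexposed) for each gene (y axis). Filled circles with bars of 1 SE are the cellulose, inulin and pectin contrasts, and open diamonds are their mean. Of the genes shown, Asns alone has single-diet estimates of different sign, and in most the cellulose estimate is the smallest.

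Acot1 (ENSMUSG00000072949, chr12:84009502-84017670 on GRCm38) had the smallest p-value of all genes. It encodes a cytosolic acyl-CoA thioesterase, which frees fatty acids from coenzyme A, and is a textbook PPAR-alpha target. On cellulose, Acot1 stood at 5.72, 6.11, 7.64 and 4.59 CPM without PFOS and at 3.00, 3.47, 1.96 and 3.79 CPM with it. On inulin, the values were 5.30, 5.67 and 3.57 CPM without PFOS and 1.42, 1.27 and 1.3003 CPM with it. On pectin, they were 6.83, 6.98, 7.00 and 14.8 CPM without PFOS and 1.71, 1.99, 3.78 and 2.14 CPM with it. Every exposed library was below every unexposed library of its own diet. The mean log2 fold change was -1.57 ± 0.19 (SE; adjusted p = 0.000645), with -0.98 ± 0.30 on cellulose, -1.86 ± 0.37 on inulin and -1.88 ± 0.31 on pectin. The 3 contrasts did not differ beyond their error (adjusted p = 0.207), which does not show that they were equal. The level was low, and how reads were divided between Acot1 and its close relative Acot2 is not given in the sources used here. Acot2 itself had a mean log2 fold change of -0.54 (adjusted p = 0.23).

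Only 3 of the 15763 genes (0.019%) separated exposed from unexposed libraries in the same direction within all 3 diets, Acot1 among them. In an exact two-sided permutation test of exposure labels within diets, Acot1 reached the smallest p that the 98000 arrangements allow, 2.04e-05. That p follows from the separation just described and is no further support. Adjusted over all genes, the permutation p of Acot1 was 0.0715, which is not a call.

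The wider PPAR-alpha list had a smaller median difference. Of its 26 tested members, 23 had a mean log2 fold change below 0, against 54.1% of all genes. There were 2 members called lower, Acot1 among them, no member was called higher, and 10 members had an unadjusted p under 0.05 on the lower side, where 8.74% of all genes lay. On cellulose 18 of the 26 were below 0 (55.5% of all genes), on inulin all 26 (50.6%) and on pectin 14 (53.6%). Without the Gata4-high libraries 23 were again below 0, and 7 had an unadjusted p under 0.05 on the lower side. The median over all genes was -0.06 in that fit, and 2121 of 15950 genes had such a p in either direction. The median over the 26 was -0.27, beside -0.02 over all genes, and it was -0.10 on cellulose, -0.59 on inulin and -0.15 on pectin. Leaving the inulin contrast out of the mean brought the list's median to -0.06, beside -0.04 over all genes. Members with the same sign on every fibre were all on the lower side, 11 of 26 against 12.5% of all genes, and included Plin2, which coats lipid droplets (-0.41, adjusted p = 0.17). The carnitine carrier Slc25a20 had -0.30 (adjusted p = 0.25), and Hadhb of the mitochondrial beta-oxidation complex had -0.22 (adjusted p = 0.32).

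Other members had contrasts of different size or sign on the 3 fibres, a difference that passed its test for Angptl4 alone among the 5 named next. Pdk4, which restrains glucose oxidation, had a mean of -0.78 ± 0.27 (adjusted p = 0.22) that combined 0.42 on cellulose with -1.33 on inulin and -1.43 on pectin. Cpt1a, the gatekeeper of fatty acid entry into mitochondria, had -0.33 ± 0.17 (adjusted p = 0.38), with -0.10, -0.95 and 0.06 on cellulose, inulin and pectin. Angptl4, an inhibitor of lipoprotein lipase, had -0.15 ± 0.26 (adjusted p = 0.816), with -0.18, -1.35 and 1.07. Its 3 contrasts differed (adjusted p = 0.0444), and its mean turned to 0.45 without the inulin diet. The fatty acid receptor Cd36 had -1.39 ± 0.53 (adjusted p = 0.252), and its unexposed cellulose libraries ran from 7.44 to 313 CPM. The fatty acid binding protein Fabp1 had -0.64 ± 0.46 (adjusted p = 0.532), a value that was 0.02 without the inulin diet. The classic hepatic target Cyp4a10 did not reach the expression filter, nor did Cyp4a14, Cyp4a31 and Fgf21.

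Lower genes from other pathways follow. Pcdh19 (chrX:133582860-133688987), an adhesion molecule of the delta protocadherin family, had a mean log2 fold change of -1.48 ± 0.22 (adjusted p = 0.00487). On cellulose, Pcdh19 was at 6.46, 6.00, 4.89 and 7.09 CPM in unexposed and 2.95, 2.07, 5.20 and 4.41 CPM in exposed libraries. On inulin, it was at 9.995, 4.00 and 6.58 CPM against 2.10, 2.15 and 1.14 CPM. On pectin, it was at 6.60, 4.97, 2.89 and 2.96 CPM against 0.922, 0.761, 1.63 and 1.72 CPM. The groups overlapped on cellulose, through 1 exposed library, and were apart on inulin and pectin. Of the 7 tested delta protocadherins, Pcdh19 was the one called, and the list's median was -0.14.

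Ghr (chr15:3317760-3583492), the growth hormone receptor, had a mean of -0.75 ± 0.15 (adjusted p = 0.0419). Its contrast was -0.22 ± 0.24 on cellulose, -0.75 ± 0.28 on inulin and -1.27 ± 0.25 on pectin. Exposed pectin libraries had 16.1, 9.01, 10.1 and 9.76 CPM of Ghr, against 33.0, 28.3, 32.2 and 15.5 CPM in unexposed ones. Only on inulin were the Ghr groups apart. Serpini1, which encodes the protease inhibitor neuroserpin, had -0.95 ± 0.19 (adjusted p = 0.0419) but only -0.30 ± 0.35 on inulin, where the groups overlapped. Ublcp1, a phosphatase that acts on the proteasome, had -0.50 ± 0.10 (adjusted p = 0.0419). Reep1, a protein that shapes the endoplasmic reticulum, had -0.85 ± 0.17 (adjusted p = 0.0479). Ankrd37, a hypoxia-induced ankyrin repeat protein whose gene overlaps Ufsp2 and Lrp2bp, had -1.12 ± 0.23 (adjusted p = 0.0479), and its groups overlapped on every fibre. Serpini1 and Reep1 were low, with means of 2.06 and 2.48 CPM over the libraries.

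**Figure D3:**
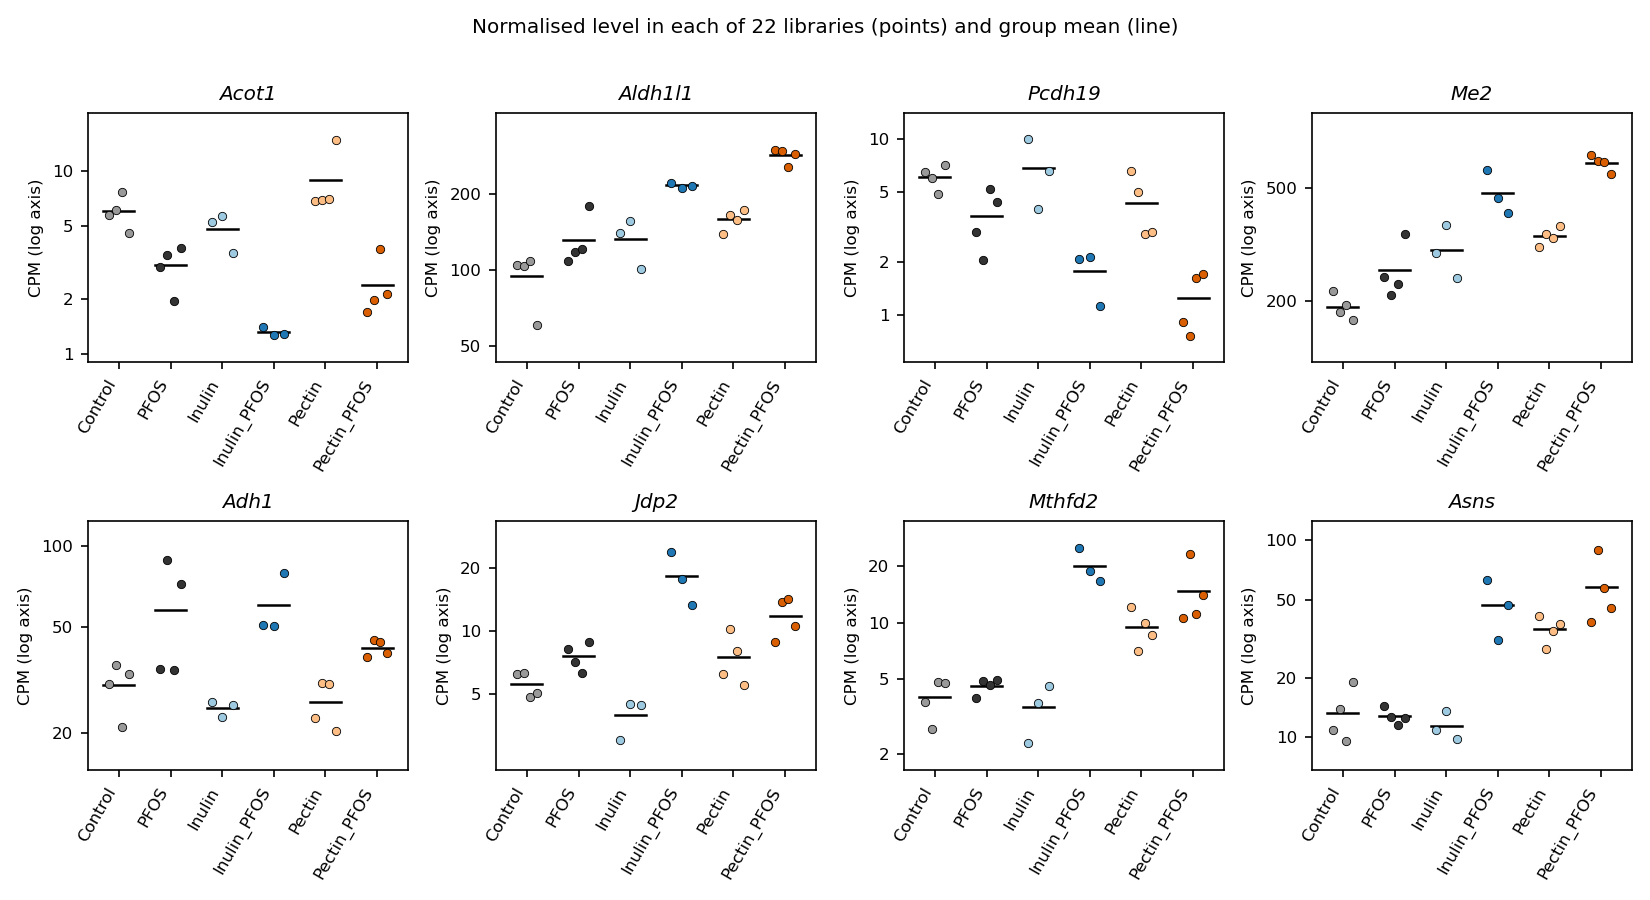
Normalised level in CPM (y axis, logarithmic) of 8 called genes in the 6 groups (x axis). Points are libraries and lines are group means. Acot1 is lower in the exposed libraries of each diet without overlap. Mthfd2 and Asns differ little on cellulose and stand apart on inulin.

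The called genes of the ATF4 group were higher with PFOS, and each had its largest contrast on inulin. With the inulin contrast left out of the mean, 2602 of 15763 genes were called, beside 25 with it. There, Jdp2 (0.55, adjusted p = 0.0288) and Chac1 (0.93, adjusted p = 0.047) kept the call, and Mthfd2 (0.42, adjusted p = 0.12) and Asns (0.32, adjusted p = 0.207) lost it. Outside the list, Mars (0.22), Upp1 (0.45) and Hs3st1 (0.22) lost it as well. The adjustment admits larger unadjusted p-values when more genes pass. A call without the inulin contrast therefore met a looser criterion than one in the main fit. Jdp2 (chr12:85599105-85639878), a repressor of AP-1 transcription factors, had the second smallest p-value of all genes. On cellulose, Jdp2 was at 6.18, 6.27, 4.84 and 5.04 CPM in unexposed and 8.22, 7.08, 6.29 and 8.86 CPM in exposed libraries. On inulin, the values were 3.01, 4.45 and 4.40 CPM against 24.0, 17.8 and 13.3 CPM. On pectin, they were 6.22, 10.2, 8.00 and 5.53 CPM against 8.83, 13.7, 14.2 and 10.5 CPM. The Jdp2 groups were apart on cellulose and inulin and overlapped on pectin. The mean log2 fold change was 1.11 ± 0.14 (adjusted p = 0.000963), made of 0.45 ± 0.23, 2.21 ± 0.28 and 0.66 ± 0.23, and these 3 values differed (adjusted p = 0.0156).

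Mthfd2 (chr6:83305691-83325908), a mitochondrial enzyme of one-carbon metabolism, had a mean of 1.12 ± 0.16 (adjusted p = 0.004). Its unexposed inulin libraries had 2.29, 3.73 and 4.63 CPM and its exposed ones 24.98, 18.9 and 16.8 CPM. On cellulose, Mthfd2 lay between 2.71 and 4.84 CPM without PFOS and between 3.97 and 4.94 CPM with it, so the groups overlapped. The contrasts were 0.20 ± 0.27, 2.51 ± 0.32 and 0.64 ± 0.26 on cellulose, inulin and pectin, and they differed (adjusted p = 0.0135). Asns (chr6:7675169-7693254), asparagine synthetase, was the called gene without a common sign: -0.06 ± 0.26 on cellulose, 2.03 ± 0.30 on inulin and 0.70 ± 0.25 on pectin. Exposed inulin libraries had 63.0, 31.2 and 46.8 CPM of Asns, against 10.96, 13.7 and 9.76 CPM in unexposed ones. The Asns mean was 0.89 ± 0.16 (adjusted p = 0.0161), and its contrasts differed (adjusted p = 0.0156).

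Chac1 (chr2:119351229-119354381), an enzyme that degrades glutathione, had a mean of 1.37 ± 0.27 (adjusted p = 0.0419) and positive values on every fibre: 0.66 ± 0.45, 2.24 ± 0.52 and 1.21 ± 0.44. It ranked outside the 15 higher genes named by rule and was added after its values were seen, as was Trafd1 below. Mars, the methionyl-tRNA synthetase, had 0.58 ± 0.11 (adjusted p = 0.041), with 0.06 on cellulose, 1.301 on inulin and 0.39 on pectin. The gene overlaps Ddit3 on the opposite strand, and whether counting used strand is not given in the sources used here. Upp1, which salvages uridine, had 1.13 ± 0.22 (adjusted p = 0.0419), with exposed inulin libraries at 1118, 941 and 785 CPM against 117, 171 and 219 CPM. Hs3st1, a heparan sulfate sulfotransferase, had 0.56 ± 0.10 (adjusted p = 0.0152) and Qsox1, which forms disulfide bonds in secreted proteins, 0.71 ± 0.11 (adjusted p = 0.0096). The contrasts of these last genes also differed between fibres, with adjusted p-values of 0.0242 for Mars, 0.0302 for Upp1, 0.02 for Hs3st1 and 0.0438 for Qsox1. Qsox1 had 0.12 ± 0.19 on cellulose, beside 1.05 ± 0.22 on inulin and 0.96 ± 0.19 on pectin.

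Of the 24 tested members of the ATF4 list, 19 had a mean log2 fold change above 0, against 45.9% of all genes. The 4 calls, all higher, were Jdp2, Mthfd2, Asns and Chac1, and 9 members had an unadjusted p under 0.05 on the higher side, where 6.16% of all genes lay. Above 0 were 11 members on cellulose (44.5% of all genes), 18 on inulin (49.4%) and 16 on pectin (46.4%). Without the Gata4-high libraries 18 were above 0, 2 were called, and 9 had an unadjusted p under 0.05 on the higher side. The median was 0.26 in the mean contrast, -0.02 on cellulose, 0.55 on inulin and 0.27 on pectin. Atf5, a related transcription factor, had 0.60 (adjusted p = 0.088), and the amino acid transporter chain genes Slc7a5 and Slc3a2 had 0.83 (adjusted p = 0.13) and 0.59 (adjusted p = 0.15). Positive on all 3 fibres were 4 of the 24, against 7.18% of all genes. Atf4 itself had 0.15 (adjusted p = 0.61), and the cystine transporter gene Slc7a11 had -0.86 (adjusted p = 0.35).

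The DNA element that ATF4 binds with its partners is often written TGATGNAA. The 250 bases before the transcription start, taken from RefSeq on GRCm38.p6, were searched for it on both strands, and no other motif was searched. Windows were found for 22 of the 25 called genes. The letters occurred in those of 4 genes, Jdp2, Asns, Chac1 and Trafd1, and in 3.91% of the 27025 genes with a window of that length. Of the 22 ATF4 list members with a window, 8 held them. The windows of 3 called members of the list are shown because they hold these letters, with the matching letters in capitals. Asns lies at chr6:7693210-7693459 on the minus strand, Jdp2 at chr12:85599166-85599415 and Chac1 at chr2:119350992-119351241, both on the plus strand. The match in Asns begins 23 bases before the start, the one in Jdp2 33 bases before (in 1 of its 3 windows), and the one in Chac1, which reads TTGCATCA because it lies on the opposite strand, 193 bases before.
Asns: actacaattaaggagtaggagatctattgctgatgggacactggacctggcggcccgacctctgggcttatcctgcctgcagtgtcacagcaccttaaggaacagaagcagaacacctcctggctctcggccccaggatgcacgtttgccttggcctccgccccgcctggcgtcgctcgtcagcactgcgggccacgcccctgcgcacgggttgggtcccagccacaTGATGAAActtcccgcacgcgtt
Jdp2: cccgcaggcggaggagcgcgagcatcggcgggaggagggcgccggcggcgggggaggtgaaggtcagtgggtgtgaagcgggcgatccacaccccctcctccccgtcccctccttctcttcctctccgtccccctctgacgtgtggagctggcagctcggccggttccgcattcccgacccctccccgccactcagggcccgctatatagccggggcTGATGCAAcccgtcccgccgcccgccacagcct
Chac1: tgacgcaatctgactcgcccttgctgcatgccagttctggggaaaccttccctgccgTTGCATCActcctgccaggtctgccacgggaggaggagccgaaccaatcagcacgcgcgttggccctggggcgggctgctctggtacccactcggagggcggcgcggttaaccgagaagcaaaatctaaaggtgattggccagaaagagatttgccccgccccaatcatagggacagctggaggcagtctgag
These matches are a description of the letters and do not show binding.

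Several metabolic genes outside the ATF4 list were also higher with PFOS, with the same sign on each fibre. Adh1 (chr3:138260991-138290698), an alcohol dehydrogenase that oxidises ethanol and retinol, had a mean of 0.96 ± 0.16 (adjusted p = 0.0104). On cellulose, Adh1 was at 30.6, 35.8, 21.2 and 33.3 CPM in unexposed and 34.9, 88.7, 34.3 and 72.5 CPM in exposed libraries. On inulin, it was at 26.2, 23.0 and 25.5 CPM against 50.6, 50.5 and 79.2 CPM. On pectin, it was at 22.9, 30.8, 30.5 and 20.4 CPM against 38.5, 44.7, 43.9 and 39.9 CPM. The Adh1 groups were apart on inulin and pectin and overlapped on cellulose, where 2 exposed libraries stood above the rest. The contrasts of 0.93 ± 0.26, 1.27 ± 0.30 and 0.68 ± 0.26 each had an unadjusted p under 0.05.

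Adh6a, its neighbour on chromosome 3, had the largest mean difference among the called genes, 2.38 ± 0.41 (adjusted p = 0.0172). Exposed inulin libraries had 45.4, 23.1 and 36.2 CPM of Adh6a, against 0.903, 1.502 and 3.68 CPM in unexposed ones. On pectin the groups overlapped, with 4.81 to 47.3 CPM exposed and 6.81 to 32.6 CPM unexposed. Adh6a has close relatives in the same gene cluster, between which reads may have been divided. It also belongs to the proximal small intestine list, as does Gata4. Without the 4 Gata4-high libraries its value was 2.20 (adjusted p = 0.1).

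Me2, the mitochondrial malic enzyme that turns malate into pyruvate, had a mean of 0.65 ± 0.11 (adjusted p = 0.0104). Unexposed libraries had 217, 183, 195 and 172 CPM of Me2 on cellulose, and exposed ones had 243, 209.8, 229.7 and 344 CPM. On inulin, Me2 lay at 296, 369 and 241 CPM against 574, 461 and 406 CPM. On pectin, Me2 lay at 311, 345, 334 and 366 CPM against 651, 619, 612 and 557 CPM. The groups were apart on inulin and pectin, and on cellulose they overlapped at 209.8 and 217 CPM. Aldh1l1, which breaks down formyl-tetrahydrofolate, had 0.68 ± 0.12 (adjusted p = 0.0152), with 0.48, 0.71 and 0.85 on cellulose, inulin and pectin. Prodh, the first enzyme of proline breakdown, had 0.83 ± 0.16 (adjusted p = 0.0387), with 0.65, 0.68 and 1.18, and its gene overlaps Dgcr6. Fut4, a fucosyltransferase that builds surface glycans, had 0.79 ± 0.14 (adjusted p = 0.0225), with 0.69, 0.67 and 1.02. Heyl, a repressor induced by Notch, had 1.05 ± 0.21 (adjusted p = 0.0419) at a level of at most 3.63 CPM.

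Few genes differed on each fibre taken alone. Of all genes, 13 (0.0825%) had an unadjusted p under 0.05 and the same sign on each of the 3 fibres, 8 higher (0.0508%) and 5 lower (0.0317%). Of these, 10 were also called in the mean contrast, among them Acot1, Pcdh19 and Reep1 on the lower side and Adh1, Aldh1l1, Fut4, Me2, Heyl and Prodh on the higher side. The other 3 were not called. Slc30a10, a manganese exporter, had a mean of 1.46 ± 0.33 (adjusted p = 0.0964), with 1.29, 1.59 and 1.51 on cellulose, inulin and pectin. H1f0, a linker histone, had 0.44 ± 0.11 (adjusted p = 0.128), and Hsdl2, a peroxisomal dehydrogenase-like protein, had -0.56 ± 0.12 (adjusted p = 0.084). Slc30a10 ran from 4.00 to 36.6 CPM in the unexposed and from 27.0 to 131 CPM in the exposed libraries, and its groups were apart on inulin alone.

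Prkci, which encodes an atypical protein kinase C of the cell polarity complex, was the only gene of 15763 (0.00634%) in which all 11 exposed libraries exceeded all 11 unexposed ones. It was singled out after its values were seen. The exposed libraries ran from 26.32 to 33.9 CPM and the unexposed ones from 22.6 to 26.25 CPM, so the gap between them was narrow. The difference was small, a mean log2 fold change of 0.20 ± 0.07, and was not called (adjusted p = 0.188).

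Interferon-stimulated genes were mostly above 0 on inulin and pectin and mostly below 0 on cellulose, and few passed a test. Called genes with ties to interferon were Rnf213, an interferon-induced ubiquitin ligase, with 0.77 ± 0.14 (adjusted p = 0.0273), and Trafd1, which damps innate immune signalling, with 0.47 ± 0.10 (adjusted p = 0.0479). Rnf213 lay between 131 and 187 CPM in exposed and between 55.6 and 84.9 CPM in unexposed pectin libraries, and on cellulose the groups overlapped. Neither gene is on the interferon list. Of its 26 members, 24 had a mean above 0, against 45.9% of all genes. None was called by edgeR, and 11 had an unadjusted p under 0.05 on the higher side, against 6.16%. DESeq2 called 3 higher (Oas3, Oasl2 and Parp14), beside 121 higher over all genes. Without the Gata4-high libraries 22 were above 0 and 8 had an unadjusted p under 0.05. The list's median was 0.41, made of -0.15 on cellulose, 0.63 on inulin and 0.67 on pectin, with 20 members below 0 on cellulose (55.5% of all genes), and 5 members were positive on all 3 fibres. Parp14 had 0.57 (adjusted p = 0.15) and Oasl2 0.66 (adjusted p = 0.16). Tap1, the peptide transporter for antigen presentation, had 1.00 ± 0.21 (adjusted p = 0.0681), and H2-Q1, a class I histocompatibility gene with close relatives, had 0.85 ± 0.19 (adjusted p = 0.0806).

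Markers of lymphocytes are given beside these genes. In bulk tissue fewer cells of a type and less RNA per cell cannot be told apart. Of 14 B and plasma cell markers, 13 had a mean below 0, against 54.1% of all genes. Their median of -1.83 was -1.60 on cellulose, -1.97 on inulin and -1.70 on pectin. Below 0 were 12 on cellulose (55.5% of all genes), 9 on inulin (50.6%) and 14 on pectin (53.6%), so 5 were above 0 on inulin. Those below 0 on every fibre were 9 of the 14, against 12.5% of all genes. None was called by edgeR, 10 had an unadjusted p under 0.05 on the lower side, against 8.74%, and DESeq2 called Ms4a1, beside 85 lower over all genes. Without the Gata4-high libraries 13 were again below 0, and 9 had an unadjusted p under 0.05. Ms4a1, the B cell surface protein CD20, had -2.46 (adjusted p = 0.17), and the antigen receptor gene Cd79a had -1.98 (adjusted p = 0.21). Cd79a shows the spread: 34.6, 1.17, 142.7 and 4.87 CPM in the Control libraries and 0.554, 7.71, 7.57 and 25.3 CPM in the PFOS libraries. The groups of Cd79a overlapped on every fibre. The antibody gene Igha was the member with a mean above 0, at 0.54 (adjusted p = 0.44), with 0.51, 2.18 and -1.08 on cellulose, inulin and pectin. The summed level of the B and plasma cell list ran from 348 to 1330 CPM in Control and from 296 to 851 CPM in PFOS libraries. On inulin it ran from 164 to 1874 CPM without PFOS and from 1496 to 2513 CPM with it. On pectin it ran from 2288 to 4863 CPM without PFOS and from 363 to 1916 CPM with it. The part of lymphocyte content in the called genes was not tested.

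Of 14 T and cytotoxic cell markers, 10 had a mean above 0, against 45.9% of all genes, and the median was 0.44. None was called by edgeR, and 6 had an unadjusted p under 0.05 on the higher side, against 6.16%. DESeq2 called Itgae, beside 121 higher over all genes. Cd8a had 0.99 (adjusted p = 0.18) and Itgae, an integrin of T cells within the epithelium, 0.93 (adjusted p = 0.17). In the PFOS group, replicate 4 had 23.6 CPM of Cd8a against 5.30 to 6.89 CPM in the others. The summed level of the list ran from 22.5 to 399.6 CPM in unexposed and from 57.1 to 437 CPM in exposed libraries. Without the 4 Gata4-high libraries the T cell median was 0.15, with 8 above 0 and 3 at an unadjusted p under 0.05. All 7 tested genes of MHC class II presentation had a mean above 0, against 45.9% of all genes, with a median of 0.82. None was called by edgeR or DESeq2, and 1 had an unadjusted p under 0.05 on the higher side, against 6.16%. The MHC class II median was 0.22 without PFOS replicate 4. It was 0.24 without the Gata4-high libraries, with 6 of 7 above 0.

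**Figure D4:**
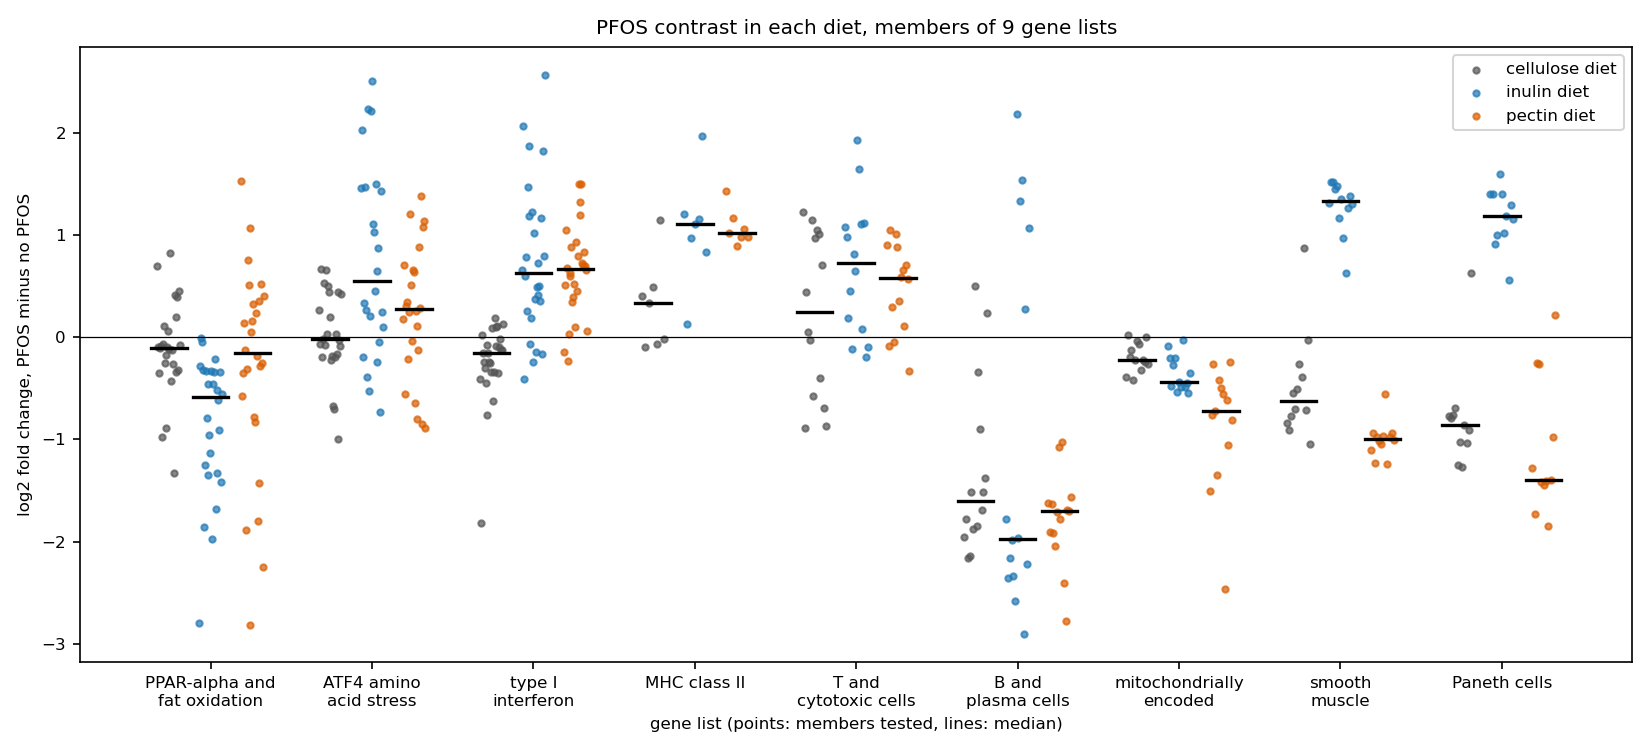
Log2 fold change with PFOS (y axis) of the tested members of 9 gene lists (x axis) on cellulose, inulin and pectin. Points are genes and lines are list medians. The B and plasma cell median is below -1.5 on every fibre, whereas the smooth muscle and Paneth cell medians are above 1 on inulin and below 0 on cellulose and pectin.

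Genes that sense or move foreign compounds did not pass the test in the mean contrast, and their list medians differed in sign between fibres. Of 21 tested targets of the receptors CAR and PXR, 12 were above 0 (45.9% of all genes) and 9 below 0 (54.1%). None was called by edgeR, and 3 had an unadjusted p under 0.05, against 14.9% of all genes. DESeq2 called Alas1 higher, beside 121 higher over all genes. The list's median was 0.12 on cellulose, -0.36 on inulin and 0.53 on pectin. Above 0 were 12 members on cellulose (44.5% of all genes), 3 on inulin (49.4%) and 17 on pectin (46.4%). The 3 contrasts differed for 2 of the 21, against 12.5% of all genes. Alas1, which starts haem synthesis, had 0.47 (adjusted p = 0.15). Cyp2b10, the classic CAR target, had 1.03 ± 0.65 (adjusted p = 0.469), and a single library, PFOS replicate 4, carried 186 CPM beside 4.25 to 7.32 CPM in the rest of its group. Without PFOS replicate 4, Cyp2b10 had 0.002, and without all Gata4-high libraries it had 0.17. Of 14 transporters of organic anions and foreign compounds, none was called by edgeR. DESeq2 called 1 higher, Slco2a1, beside 121 higher over all genes. It was also the only member with an unadjusted p under 0.05, against 14.9% of all genes. The transporter median was 0.20 on cellulose, -0.62 on inulin and 0.73 on pectin, with 10, 5 and 10 members above 0. The 3 contrasts differed for 7 of the 14 transporters, against 12.5% of all genes. Slco2a1, a prostaglandin carrier, had 0.79 ± 0.17 (adjusted p = 0.0729), with 0.23 on cellulose, 0.26 on inulin and 1.87 on pectin.

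The number of calls depended on single libraries and on the method. It was 14 without PFOS replicate 1, 13 without PFOS replicate 3, 16 without Control replicate 4, 9, 42 and 11 without Inulin replicates 1, 2 and 3, and 8, 14 and 15 without Inulin_PFOS replicates 1, 2 and 3. It was 12, 12, 41 and 40 without Pectin replicates 1, 2, 3 and 4, and 14 without Pectin_PFOS replicate 3. There were 8 genes, among them Acot1, Jdp2, Mthfd2, Pcdh19, Qsox1, Me2 and Adh1, that kept the call in each of the 22 omissions of 1 library, and the other 17 genes lost it in at least 1. Without the 4 Gata4-high libraries there were 6 calls, among them Acot1, Pcdh19, Jdp2, Mthfd2 and Fut4. With scaling to library totals there were 15 calls, 7 higher and 8 lower, beside 17 and 8 under TMM scaling. No called gene changed sign under any of these settings.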

How the data were processed

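Messenger RNA of mouse intestine was sequenced in 22 libraries (stranded kit, DNBSEQ platform, per the labels' protocols). The authors deposited expected counts and TPM (transcripts per 1000000) per gene. HISAT, Bowtie2 and GRCm39 appear in the submitters' processing notes; the program that counted reads is not given in the sources used here. Of 46091 genes shared with GENCODE M21, 38946 have the GRCm38 start and end, so coordinates are on GRCm38.

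Deposited expected counts were rounded. Of 46603 genes, 15763 passed edgeR's default expression filter. One mean per group was fitted (edgeR 4.0.16 in R 4.3.3, TMM scaling, robust quasi-likelihood F test, 16 residual degrees of freedom, common dispersion 0.102), and the contrast was the mean of PFOS minus Control, Inulin_PFOS minus Inulin and Pectin_PFOS minus Pectin. Two-sided p-values received Benjamini-Hochberg adjustment over all genes, and a gene was called at an adjusted p under 0.05. The SE was taken as the size of the log2 fold change over the root of F. Equality of the 3 contrasts was tested with a 2-degree F test. CPM are TMM-scaled; log2 CPM for the permutation test used a prior count of 2. Alternatives used DESeq2 1.42.0, and limma 3.58.1 on log2 of deposited TPM plus 1 or 0.1. Where a diet is left out, its contrast was dropped from the mean and its libraries stayed in the fit. Code was tested on simulated data.

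Named were up to 15 called genes per direction, the 10 with the smallest p and the 10 most even across diets per direction (mean of at least 1 CPM), the 2 leading members of each of 48 lists, 5 genes with unequal contrasts and 14 fixed genes; some are left out for length, and some results are not reported here. The groups of genes and the lists were chosen with earlier results of these data known, and lists share members.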

Additional observations from a re-analysis of the deposited data

Results flagged for a closer look

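In groups of 4 libraries, some values stood far from the other 3 by Dixon's criterion . Chance flags about 1 group in 20, and 16 of the 204 groups scanned did so. For called genes these were Acot1 in Pectin replicate 4 (14.8 CPM against 6.83 to 7.00), Aldh1l1 in Control replicate 4 (60.5 against 104 to 109), Mars in Pectin_PFOS replicate 2 (53.2 against 29.4 to 31.4) and Ghr in Pectin_PFOS replicate 1 (16.1 against 9.01 to 10.1). In PFOS replicate 4, Cyp2b10 (186 CPM), Fabp1 (105), Cd8a (23.6), Itgae (17.9), Alas1 (81.1) and Tap1 (87.4) stood above the rest of the group. In Pectin_PFOS replicate 1, Pdk4 (23.9 CPM) and Angptl4 (226) did. The others were Cd36 in Control replicate 4 (313 CPM), H2-Q1 in Control replicate 2 (60.7), Fabp1 in Pectin replicate 2 (91.7) and Tap1 in Pectin replicate 3 (94.6).

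The PFOS contrast differed between the 3 fibres, in the test that they are equal, for 7 called genes: Jdp2 (adjusted p = 0.0156), Mthfd2 (0.0135), Qsox1 (0.0438), Hs3st1 (0.02), Asns (0.0156), Mars (0.0242) and Upp1 (0.0302). It also differed for 5 genes that were not called in the mean contrast: Slco2a1 (adjusted p = 0.0211), Slc22a3 (0.0389), Atf5 (0.025), Igha (0.0356) and Angptl4 (0.0444).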

How the results depend on the processing

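Of 25 calls in the mean contrast, 23 were found with RLE scaling, 17 without the expression filter, 24 from a mean of 1 CPM on, and 25 without robust fitting or without mitochondrial genes. There were 15 with library totals (7 higher, 8 lower), 7 with an additive model, 206 with DESeq2 (121 higher, 85 lower, all 25 among them), and 9, 9 and 6 with limma on log2 TPM plus 1, plus 0.1, and plus 1 with no filter. There were 2602 without the inulin diet (1213 higher, 1389 lower), 6 without the pectin diet, 27 without the cellulose diet and 6 without the Gata4-high libraries. The exact permutation test gave 0 calls at an adjusted p under 0.05, with 1570 genes at an unadjusted p under 0.05 (all 25 called genes among them). Omitting single libraries gave 8 to 42 calls. Acot1 was called in every refit; the permutation test had no calls.

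The 1977 genes with unequal contrasts became 1236 with library totals, 1279 with no filter, 3478 with DESeq2, 389, 674 and 0 with limma on log2 TPM plus 1, plus 0.1, and plus 1 with no filter (5143 at an unadjusted p under 0.05), and 199 without the Gata4-high libraries. Omitting single libraries gave 0 to 3086. The count was 0 without Inulin replicate 1 (3756 at an unadjusted p under 0.05) and without Inulin_PFOS replicate 3 (4179), 670 and 1293 without Inulin_PFOS replicates 1 and 2, 1028 and 868 without Pectin replicates 1 and 2, 1023 without Pectin_PFOS replicate 1 and 3086 without Control replicate 4.

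The 13 genes with an unadjusted p under 0.05 on each fibre became 6 with library totals and 7 without the Gata4-high libraries, and 8 to 17 on omitting single libraries (8 without Control replicate 4 or Inulin_PFOS replicate 1).

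The titles do not say that replicate numbers pair the samples. Same-numbered deviations correlated above 0.1 in 4 of 11 pairs (-0.248 to 0.291). Differently numbered samples were not compared, so these values cannot exclude a pairing. A replicate block gave 14 calls in the mean contrast, 2772 genes with unequal contrasts and 11 genes at an unadjusted p under 0.05 on each fibre. The replicate block by the number in the sample name gave 12, 2087 and 6.

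Without the inulin diet the means of Fabp1 (0.023), Angptl4 (0.446) and Igha (-0.286) changed sign. Library totals moved the median of all genes to -0.27 on pectin, and log2 TPM plus 1 moved it to 0.16 on cellulose and -0.14 on inulin. The Gata4, permutation and name-number alternatives and the list medians were added after seeing the data. With 3 or 4 libraries per group and a biological coefficient of variation of 31.9%, small changes of low genes cannot be seen.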

Other observations

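Medians of several marker lists changed sign with the fibre. Smooth muscle markers had a median log2 fold change of -0.63 on cellulose, 1.34 on inulin and -0.99 on pectin, and a mean-contrast median of -0.09, with 0 of 12 called by edgeR or DESeq2 and 0 at an unadjusted p under 0.05. Paneth cell markers had -0.86, 1.18 and -1.39, with 9 of 11 below 0 in the mean contrast, against 54.1% of all genes. None of the 11 was called by edgeR or DESeq2, and 1 had an unadjusted p under 0.05 on the lower side, against 8.74% of all genes. Fibroblast markers had -0.32, 0.91 and -1.07, with none of 13 called by edgeR or DESeq2 in the mean contrast. An unadjusted p under 0.05 was found for 4 of them, all on the lower side, against 8.74% of all genes. The 3 contrasts differed for 5 smooth muscle, 5 Paneth cell and 7 fibroblast markers, beside 12.5% of all genes. In the mean contrast, 8 of 12 smooth muscle and 8 of 13 fibroblast markers were below 0, and without the Gata4-high libraries 12 of 12 and 12 of 13 were, against 54.1% of all genes in the fit with all libraries. Summed smooth muscle markers ran from 1489 to 4695 CPM in Inulin and from 4053 to 10915 CPM in Inulin_PFOS libraries. Across the 15763 genes, the Spearman correlation of the contrasts was -0.23 between cellulose and inulin, 0.49 between cellulose and pectin, and -0.43 between inulin and pectin. These contrasts share no library but share the scaling and the model, and genes are not independent replicates.

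All 13 mitochondrially encoded genes had a mean below 0, against 54.1% of all genes, with a median of -0.39. The median was -0.22 on cellulose, -0.43 on inulin and -0.72 on pectin. None was called by edgeR, and 3 had an unadjusted p under 0.05 on the lower side, against 8.74%. DESeq2 called mt-Nd3, beside 85 lower over all genes. Of the nuclear subunits of oxidative phosphorylation, 20 of 28 were above 0, against 45.9% of all genes, with a median of 0.09. That median was -0.09 on cellulose, 0.45 on inulin and -0.12 on pectin. Above 0 were 8 subunits on cellulose (44.5% of all genes), all 28 on inulin (49.4%) and 10 on pectin (46.4%). None was called by edgeR or DESeq2, and 7 had an unadjusted p under 0.05 on the higher side, against 6.16%. Without the Gata4-high libraries 17 were above 0 and 1 had an unadjusted p under 0.05 on that side. Mitochondrially encoded genes took 3.74% to 14.9% of the Control and 4.26% to 9.16% of the PFOS libraries. They took 5.16% to 12.2% of the Inulin and 3.95% to 7.90% of the Inulin_PFOS libraries. They took 3.88% to 7.36% of the Pectin and 2.85% to 3.51% of the Pectin_PFOS libraries, the one pair that did not overlap.

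Genes of fat absorption and chylomicron assembly were above 0 in 14 of 17 cases, against 45.9% of all genes, with a median of 0.29, made of 0.20 on cellulose, -0.23 on inulin and 0.89 on pectin. None was called by edgeR, and 5 had an unadjusted p under 0.05 on the higher side, against 6.16%. DESeq2 called Soat2, which esterifies cholesterol, beside 121 higher over all genes. Without the pectin diet the median was -0.02, and without the Gata4-high libraries 12 of 17 were above 0.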
